A study of Mus musculus with 4 samples.

Results

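The integrated stress response was followed here through 10 genes: the transcription factor genes Atf4, Atf5, Ddit3 and Cebpb, the feedback and brake genes Ppp1r15a, Trib3, Sesn2 and Ddit4, the glutathione-degrading enzyme gene Chac1, and Gdf15, which codes for a secreted stress hormone. They were taken by symbol from the 54446 genes of the deposited table, and each of the 10 was found. Their symbols matched 11 rows, because Ddit3 is listed under 2 identifiers. The genes had been chosen for their values in these libraries, so their changes with baicalin are a description and carry no test. RNA came from wild type C57BL/6 mouse mammary gland cells sorted as basal or luminal, grown in 3D in growth factor-reduced Matrigel, and given DMSO or 100 μM baicalin, a flavonoid of Scutellaria roots. The cells had been sorted on CD24 and CD29 after CD31, CD45 and TER119 positive cells were removed. They came from female mice whose number is not given in the sources used here. There was 1 library for each of the 4 combinations of label and treatment, so no spread between replicates can be given. Intervals below are 95% intervals of counting error from the fragments behind each value, and they say nothing about how a second culture would vary. Levels are FPKM, fragments per kilobase of exon, scaled to library depth, and changes are log2((baicalin FPKM + 1)/(DMSO FPKM + 1)).

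In the integrated stress response, kinases that sense endoplasmic reticulum stress, amino acid lack, haem lack, mitochondrial stress or viral RNA phosphorylate the translation initiation factor eIF2. General protein synthesis then falls, while the upstream open reading frames of the Atf4 mRNA let ATF4 protein be made. ATF4 switches on amino acid supply genes and a further layer of factors, among them CHOP (the product of Ddit3) and ATF5, and the phosphatase subunit GADD34 (Ppp1r15a) removes the phosphate again. Because ATF4 is governed mainly at translation, its mRNA level is not a reading of its protein. In mammary epithelium C/EBP beta is known for its part in ductal and alveolar development.

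The libraries held between 19356117 and 20648810 fragments, and 1 fragment on 1 kb of exon was worth 0.0484 to 0.0517 FPKM. The cell labels went against the basal and the general luminal markers. All 10 basal markers, such as Krt5 and Acta2, were higher in the luminal label than in the basal label under both treatments. Their summed level was 1761 FPKM with DMSO and 479 FPKM with baicalin in the basal label, and 5404 and 7199 FPKM in the luminal label. The 10 luminal markers summed to 4603 and 3202 FPKM in the basal label and to 1468 and 1266 FPKM in the luminal label. Narrower luminal lists were mixed. Of 8 hormone-sensing markers 4 were higher and 4 lower in the luminal label under DMSO, and 3 higher and 5 lower under baicalin. Of the 5 alveolar markers with a value above 0 in all libraries, 1 was higher there under DMSO and 1 under baicalin. Basal and luminal are therefore used here only as labels of libraries. Whether labels or columns were exchanged was not tested. In RNA from whole cultures, fewer cells of a type and less RNA per cell cannot be told apart, and these marker sums moved with both label and treatment. Their part in the changes of the 10 genes was not tested.

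The promoters of the 10 genes were read first, as a description. RefSeq on GRCm38.p6 gave a window of 250 bases before and 50 bases after the start for all 10 genes, 12 windows in all. Each was searched on both strands for 5 motifs. The C/EBP-ATF composite site TGATGNAA, which ATF4 binds with a C/EBP partner, was in the windows of Trib3 and Chac1 and in 4.51% of all 27025 genes with a window. The cyclic AMP response element TGACGTCA was in that of Ppp1r15a and in 2.03% of genes. The E-box CACGTG was in the second Gdf15 window and in 8.09% of genes. The core of the antioxidant response element, TGACNNNGC, was in the windows of Sesn2, Ppp1r15a and Cebpb and in 14.0% of genes. The endoplasmic reticulum stress element, which ATF6 reads, was in none of the 12 windows and in 0.137% of genes. Among ATF4 target genes outside the 10, 14 of 37 with a window held the composite site, Asns, Slc7a11 and Fgf21 among them. As many, 14 of 37, held the antioxidant response element core, 8 the E-box and 0 the cyclic AMP response element. Of the ATF6 and XBP1 arms, 9 of 22 genes held the stress element. A match is only a match of letters. A window without one may hold a near match, and it says nothing about binding elsewhere. The sequences that follow are those with a composite site, a cyclic AMP response element or an E-box, with these letters in capitals, and the first Gdf15 window, which held none of the 5 motifs although Gdf15 had the largest change in the basal label. They run 5′ to 3′ on the strand of the gene.
Chac1, chr2:119350992-119351291, plus strand: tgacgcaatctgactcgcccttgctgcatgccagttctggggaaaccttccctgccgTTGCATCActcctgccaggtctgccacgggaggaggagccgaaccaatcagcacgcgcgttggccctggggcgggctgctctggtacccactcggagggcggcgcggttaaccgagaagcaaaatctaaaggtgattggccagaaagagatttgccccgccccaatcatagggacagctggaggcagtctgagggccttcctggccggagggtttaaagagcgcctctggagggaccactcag
Trib3, chr2:152344011-152344310, minus strand: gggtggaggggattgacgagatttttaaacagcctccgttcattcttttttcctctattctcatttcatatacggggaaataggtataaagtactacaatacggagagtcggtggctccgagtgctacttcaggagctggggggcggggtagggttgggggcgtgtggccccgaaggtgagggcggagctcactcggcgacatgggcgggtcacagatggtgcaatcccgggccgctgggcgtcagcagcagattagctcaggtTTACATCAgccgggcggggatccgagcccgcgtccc
Ppp1r15a, chr7:45526219-45526518, minus strand: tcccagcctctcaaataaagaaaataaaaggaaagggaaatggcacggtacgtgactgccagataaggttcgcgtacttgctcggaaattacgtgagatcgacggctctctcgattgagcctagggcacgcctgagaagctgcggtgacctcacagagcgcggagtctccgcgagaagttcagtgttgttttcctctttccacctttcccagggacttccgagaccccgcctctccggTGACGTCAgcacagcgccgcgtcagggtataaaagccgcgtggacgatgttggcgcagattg
Gdf15, chr8:70632407-70632706, minus strand: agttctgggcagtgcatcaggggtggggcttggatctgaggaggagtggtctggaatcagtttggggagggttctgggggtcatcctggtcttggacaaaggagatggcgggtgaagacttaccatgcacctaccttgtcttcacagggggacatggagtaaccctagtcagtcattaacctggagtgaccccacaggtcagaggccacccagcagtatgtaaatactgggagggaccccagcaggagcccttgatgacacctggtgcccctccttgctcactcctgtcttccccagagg
Gdf15, chr8:70632046-70632345, minus strand: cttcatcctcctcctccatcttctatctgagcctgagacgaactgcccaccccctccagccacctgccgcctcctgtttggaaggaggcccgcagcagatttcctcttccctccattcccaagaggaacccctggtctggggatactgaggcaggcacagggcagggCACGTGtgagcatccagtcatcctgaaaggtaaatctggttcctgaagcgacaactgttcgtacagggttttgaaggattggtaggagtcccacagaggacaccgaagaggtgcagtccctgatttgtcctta

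The composite site lay 193 bases before the start of Chac1, where the gene's strand reads TTGCATCA. In Trib3 it lay 15 bases into the transcript, as TTACATCA. Both are the reverse complement of TGATGNAA. The cyclic AMP response element of Ppp1r15a, a palindrome, lay 12 bases before its start. The E-box lay 83 bases before the second Gdf15 start.

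Each of the 10 genes had a higher FPKM with baicalin than with DMSO in both labels, and each of these 20 ratios had an interval above 1. Of all 17787 genes with an FPKM above 0 in the 4 libraries, 50.9% were higher with baicalin in the basal label and 45.6% in the luminal label. By the threshold of 1 on the log2 scale, 6 of the 10 were past it in the basal label, where 2.15% of all genes were, and 5 of the 10 in the luminal label, where 2.37% were. Trib3, Chac1, Sesn2 and Gdf15, 4 of the 10, were past it in both, where 0.596% of all genes were. The median log2 change of the 10 was 1.58 in the basal and 1.12 in the luminal label, beside 0.01 and -0.02 over all genes. The 10 genes were chosen on these contrasts, so these counts support nothing further. Together they made up 393 FPKM in the basal label with DMSO and 846 FPKM with baicalin, and 284 and 569 FPKM in the luminal label.

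**Figure D1:**
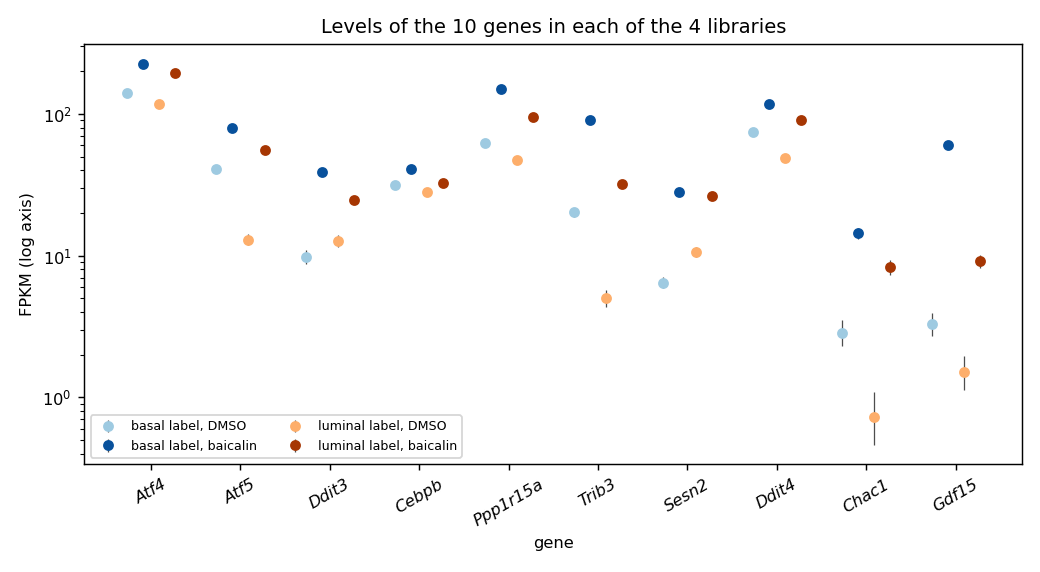
FPKM of each of the 10 genes on a log axis, 1 point per library, with bars for the 95% interval of counting error. In each gene both baicalin points (dark) lie above the DMSO point (light) of the same label, from Cebpb, where they nearly meet, to Gdf15, at 3.26 and 60.6 FPKM in the basal label.

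Atf4 (ENSMUSG00000042406, GRCm38 chromosome 15, 80255184 to 80257541) was the most abundant of the 10 in each library, with modest ratios. It had 141 FPKM with DMSO and 224 FPKM with baicalin in the basal label, and 117 and 195 FPKM in the luminal label. Both baicalin libraries were above both DMSO libraries, and the ratios were 1.59 (interval 1.54 to 1.64) and 1.67 (1.62 to 1.73). In rank of change, Atf4 stood at 1011 of 17787 in the basal label and at 783 in the luminal label.

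Atf5 (ENSMUSG00000038539, chromosome 7, 44812256 to 44816658) codes for the ATF4 relative known for the mitochondrial branch of the response, and it had the largest luminal ratio of the 4 factors. It had 40.6 and 79.9 FPKM with DMSO and baicalin in the basal label, and 13.0 and 55.3 FPKM in the luminal label. The luminal DMSO library stood lowest, and the ratios were 1.97 (1.85 to 2.09) and 4.26 (3.87 to 4.71). Atf5 shares 82 exon bases with Nup62 and Il4i1 on the opposite strand. Whether the counting used strand is not given in the sources used here.

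Ddit3 (ENSMUSG00000025408, chromosome 10, 127290774 to 127296288), which codes for the pro-apoptotic factor CHOP, showed the reverse order of labels. It had 9.76 and 38.9 FPKM in the basal label and 12.7 and 24.6 FPKM in the luminal label, with ratios of 3.98 (3.53 to 4.51) and 1.94 (1.72 to 2.18). Its luminal log2 change, 0.90, was just under the threshold. The second row of that symbol (ENSMUSG00000116429) was at 0 FPKM in all 4 libraries. It annotates 105 exon bases in the 5′ part of the transcript, and all 105 lie inside Ddit3 exons on the same strand, so a fragment there cannot be given to either identifier alone. On the opposite strand, Ddit3 shares 68 exon bases with Mars and 13 with Gm4189. The FPKM of Mars was 24.3 and 28.3 in the basal label and 17.3 and 24.4 in the luminal label.

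Cebpb (ENSMUSG00000056501, chromosome 2, 167688915 to 167690418) had the smallest ratios of the 10. It had 31.6 and 40.5 FPKM in the basal label and 28.1 and 32.7 FPKM in the luminal label. The 4 libraries lay within a narrow band, and the ratios were 1.28 (1.18 to 1.40) and 1.16 (1.06 to 1.28). Cebpb shares 312 exon bases with Tmem189 on the opposite strand, whose FPKM was 12.9 and 11.1 in the basal label and 10.2 and 9.36 in the luminal label. Reads from the 2 genes cannot be told apart over that stretch unless strand was used.

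Among the feedback genes, Ppp1r15a (ENSMUSG00000040435, chromosome 7, 45522916 to 45526268) had 62.3 and 151 FPKM in the basal label and 47.2 and 95.3 FPKM in the luminal label. Both baicalin libraries were above both DMSO libraries. The ratios were 2.43 (2.33 to 2.52) and 2.02 (1.93 to 2.12), and its luminal log2 change of 0.9998 lay directly under the threshold. Ppp1r15b, the constitutive partner subunit that does the same task, had ratios of 1.24 (1.17 to 1.30) and 1.13 (1.07 to 1.19).

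Trib3 (ENSMUSG00000032715, chromosome 2, 152337422 to 152344032) codes for a pseudokinase that binds ATF4 and CHOP and holds them back. It had 20.1 and 90.5 FPKM in the basal label and 4.98 and 32.2 FPKM in the luminal label. The luminal baicalin library exceeded the basal DMSO library, and the ratios were 4.49 (4.17 to 4.84) and 6.46 (5.58 to 7.52). It ranked 29 of 17787 by change in the basal and 27 in the luminal label. Its relatives did otherwise: Trib2 had 31.7 and 12.0 FPKM in the basal and 28.1 and 14.0 FPKM in the luminal label, with ratios of 0.380 (0.353 to 0.408) and 0.499 (0.465 to 0.534). Trib1 had ratios of 1.19 (1.11 to 1.27) and 0.949 (0.873 to 1.03), the second within counting error.

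Sesn2 (ENSMUSG00000028893, chromosome 4, 132492032 to 132510501) codes for the leucine-binding sestrin that restrains the growth kinase mTORC1. It had 6.45 and 28.1 FPKM in the basal label and 10.6 and 26.2 FPKM in the luminal label, so the baicalin libraries lay close together while the DMSO libraries lay apart. The ratios were 4.36 (3.94 to 4.85) and 2.48 (2.27 to 2.70). The other sestrin genes were lower with baicalin, Sesn1 at ratios of 0.690 (0.584 to 0.815) and 0.800 (0.705 to 0.908) and Sesn3 at 0.941 (0.892 to 0.992) and 0.829 (0.800 to 0.858).

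Ddit4 (ENSMUSG00000020108, chromosome 10, 59949669 to 59951834) codes for REDD1, a second brake on mTORC1 that also answers to hypoxia and glucocorticoids. It had 74.8 and 118 FPKM in the basal label and 48.7 and 90.1 FPKM in the luminal label, with ratios of 1.58 (1.504 to 1.659) and 1.85 (1.74 to 1.96). Both log2 changes were under the threshold. Its relative Ddit4l had ratios of 1.49 (1.31 to 1.69) and 1.57 (1.42 to 1.72).

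Chac1 (ENSMUSG00000027313, chromosome 2, 119351229 to 119354381) codes for an enzyme that cleaves glutathione. It was the scarcest of the 10 in each library, at 2.86 and 14.3 FPKM in the basal label and 0.726 and 8.25 FPKM in the luminal label. The luminal DMSO value rested on 23 fragments, and the ratios were 5.01 (4.00 to 6.33) and 11.4 (7.43 to 18.2). The luminal ratio was the largest of the 10 in that label, while its log2 change, which adds 1 FPKM to each value, was 2.42 and so came after that of Trib3 at 2.47. Its relative Chac2 had ratios of 1.33 (1.04 to 1.70) and 2.02 (1.47 to 2.79).

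Gdf15 (ENSMUSG00000038508, chromosome 8, 70629393 to 70632456) had the largest change of the 10 in the basal label. It had 3.26 and 60.6 FPKM there, on 120 and 2278 fragments, and 1.51 and 9.15 FPKM in the luminal label, on 54 and 350 fragments. The basal baicalin library stood far above the other 3. The ratios were 18.6 (15.5 to 22.5) and 6.08 (4.55 to 8.25). It ranked 4 of 17787 by log2 change in the basal label and 57 in the luminal label. Of its receptor, Gfral was at 0 FPKM in all 4 libraries and the co-receptor Ret was between 0.233 and 0.819 FPKM.

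**Figure D2:**
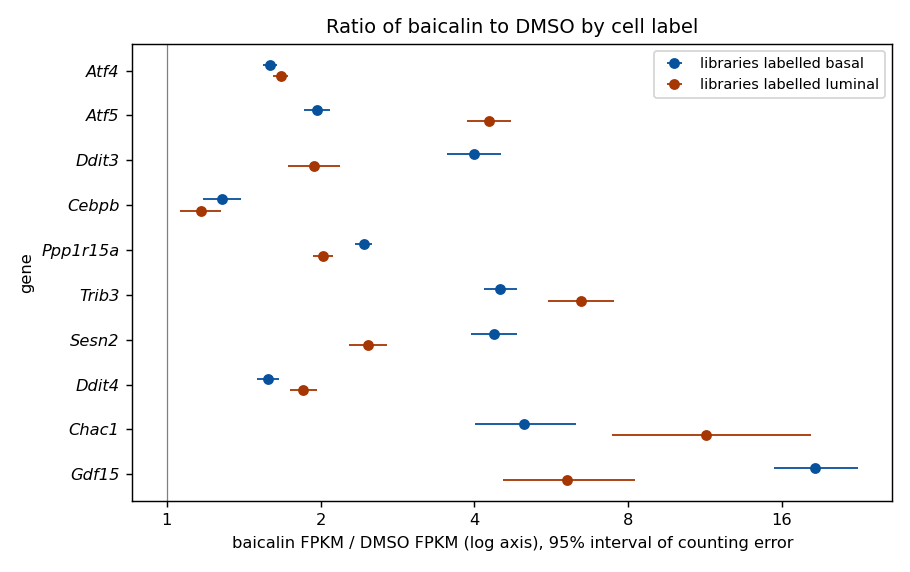
Ratio of baicalin FPKM to DMSO FPKM for each gene on a log axis, with the 95% interval of counting error, for libraries labelled basal (blue) and luminal (brown). All 20 intervals lie right of 1, and the pair of points stands farthest apart for Gdf15, at 18.6 and 6.08, and for Chac1, at 5.01 and 11.4.

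The size of the change differed between labels in 2 directions. Taking the basal ratio over the luminal ratio, Gdf15 stood at 3.06 (2.18 to 4.30), Ddit3 at 2.05 (1.74 to 2.43), Sesn2 at 1.76 (1.54 to 2.02) and Ppp1r15a at 1.20 (1.13 to 1.28). The opposite held for Chac1, whose luminal ratio was 2.27 (1.41 to 3.67) times its basal ratio, Atf5 at 2.17 (1.93 to 2.43), Trib3 at 1.44 (1.22 to 1.70), Ddit4 at 1.17 (1.09 to 1.26) and Atf4 at 1.05 (1.01 to 1.10). For Cebpb the interval, 0.802 to 1.03 for the luminal over the basal ratio, included 1. In log2 changes, the luminal value minus the basal value was below -1 for Gdf15, at -1.84, and above 1 for Atf5, at 1.05, where 2.65% and 4.41% of all genes were. Without an added FPKM, Ddit3 was below -1 and Chac1 above 1 besides, but so were 12.8% and 13.1% of all genes. With 1 library per condition, these differences between labels have no replicate check and were not tested.

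Between labels, the 10 genes tended to be lower in the luminal label. Under DMSO 2 of 10, Ddit3 and Sesn2, were higher there, beside 52.5% of all genes. In log2 terms none of the 10 stood above 1, where 4.71% of all genes did, and 3 stood below -1, where 3.86% did. These were Trib3, Atf5 and Chac1, at 0.247 (0.211 to 0.289), 0.319 (0.288 to 0.353) and 0.254 (0.153 to 0.404) times the basal level. Under baicalin none of the 10 was higher in the luminal label, beside 45.2% of all genes, and so none by more than 1, where 5.24% were. Gdf15 and Trib3 were lower by more than 1, where 2.99% were. Gdf15 then stood at 0.151 (0.135 to 0.169) and Trib3 at 0.356 (0.335 to 0.378) times the basal level, whereas Sesn2 nearly met it at 0.932 (0.875 to 0.994). The comparisons under DMSO and under baicalin use the same 4 libraries as those of baicalin against DMSO, and are not a separate line of evidence.

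The order of levels changed with baicalin. In the basal label with DMSO it ran from Atf4 over Ddit4, Ppp1r15a, Atf5, Cebpb, Trib3, Ddit3 and Sesn2 to Gdf15 and Chac1, and of neighbours only Gdf15 and Chac1 did not differ beyond counting error, with a ratio of 1.14 (0.863 to 1.51). With baicalin Gdf15 moved from place 9 to place 6, Trib3 from 6 to 4, and only Cebpb and Ddit3 were neighbours within counting error, at 1.04 (0.964 to 1.13). In the luminal label with DMSO the order was Atf4, Ddit4, Ppp1r15a, Cebpb, Atf5, Ddit3, Sesn2, Trib3, Gdf15 and Chac1. There Ddit4 and Ppp1r15a, at 1.03 (0.970 to 1.10), and Atf5 and Ddit3, at 1.02 (0.897 to 1.17), were within counting error. With baicalin Trib3 moved from place 8 to place 6, and Cebpb and Trib3, Sesn2 and Ddit3, and Gdf15 and Chac1 were within it. Among all genes tested, Atf4 stood in the top 0.855% to 1.65% by level. Gdf15 went from place 9228 to place 663 in the basal label and from 11436 to 5430 in the luminal label.

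Read against Atf4 in the same library, where the scaling between libraries cancels, the genes again moved apart. Gdf15 stood at 2.31% (1.92 to 2.77) of the Atf4 level with DMSO and 27.0% (25.8 to 28.3) with baicalin in the basal label, and at 1.29% (0.969 to 1.69) and 4.69% (4.20 to 5.22) in the luminal label. Trib3 went from 14.3% to 40.3% and from 4.27% to 16.5%. Atf5 went from 28.8% to 35.6% and from 11.1% to 28.3%, which brought the luminal share to the basal DMSO share. Ddit3 went from 6.92% (6.18 to 7.73) to 17.3% (16.4 to 18.4) in the basal label but only from 10.9% (9.81 to 12.0) to 12.6% (11.7 to 13.5) in the luminal label. Ddit4 stayed at 53.02% (50.65 to 55.49) and 52.66% (50.8 to 54.58) in the basal label, within counting error, and Cebpb was the gene whose share went down, from 22.4% to 18.1% and from 24.1% to 16.8%.

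**Figure D3:**
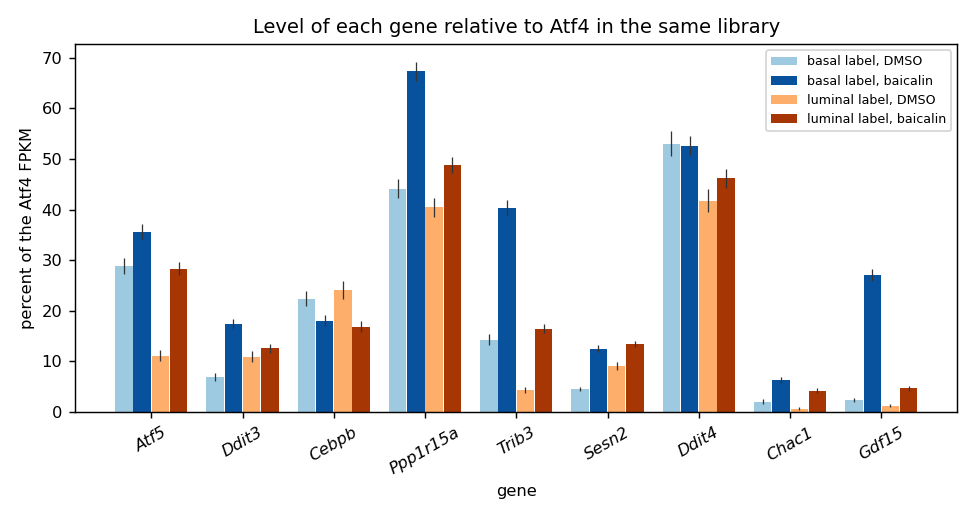
FPKM of each gene as a percent of the Atf4 FPKM of the same library, 1 bar per library from 0, with the 95% interval of counting error. The basal baicalin bars of Gdf15 (27.0%) and Trib3 (40.3%) stand well above their DMSO bars (2.31% and 14.3%), while the basal bars of Ddit4 are level.

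The genes listed upstream of ATF4 went in mixed directions. Of the 4 eIF2 alpha kinases, Eif2ak1 (the haem and mitochondrial stress sensor HRI) and Eif2ak4 (the amino acid sensor GCN2) stayed within counting error in both labels, at ratios of 1.06 (0.967 to 1.15) and 0.967 (0.886 to 1.06), and 0.994 (0.909 to 1.09) and 1.01 (0.934 to 1.10). Eif2ak2, the sensor of double-stranded RNA PKR, had 30.4 and 13.2 FPKM in the basal label and 15.1 and 11.4 FPKM in the luminal label. It was past the threshold downwards in the basal label, where 3.33% of all genes were. Eif2ak3, the endoplasmic reticulum sensor PERK, had ratios of 0.818 (0.761 to 0.879) in the basal and 1.58 (1.45 to 1.72) in the luminal label. Kinase mRNA is not kinase activity, and phosphorylated eIF2 was not measured. Of 8 genes for eIF2 and its exchange factor eIF2B, 7 were lower with baicalin in the basal label and 6 in the luminal label. That left 1 and 2 higher, beside 50.9% and 45.6% of all genes. None was past the threshold, where 2.15% and 2.37% of all genes were upwards and 3.33% and 1.59% downwards. The medians of the 8 were -0.22 and -0.12. Eif2s2 alone was higher in both, at ratios of 1.088 (1.046 to 1.131) and 1.281 (1.229 to 1.336). The 5 mitochondrial genes listed were Oma1 and Dele1, of the relay to HRI, and Dhx30, Afg3l2 and Yme1l1. Their log2 changes stayed between -0.16 and 0.30. Of these 5 genes, 3 were higher with baicalin in each label, beside 50.9% and 45.6% of all genes. Afg3l2 was higher in both, at ratios of 1.239 (1.199 to 1.281) and 1.094 (1.055 to 1.135).

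Downstream, 46 genes listed from general knowledge as ATF4 targets outside the 10 were read. The list was made with earlier results of these data known, so its counts are a description. In the basal label 42 were higher with baicalin and 16 passed the threshold upwards, beside 50.9% and 2.15% of all genes. In the luminal label 45 were higher and 17 passed it, beside 45.6% and 2.37%. None passed it downwards, beside 3.33% and 1.59% of all genes in the basal and luminal label. The 46 targets had medians of 0.69 and 0.81. Of them 8 passed the threshold upwards in both labels, where 0.596% of all genes did. Slc7a11, the cystine importer, was highest, with log2 changes of 4.37 and 3.49. Fgf21, which like Gdf15 codes for a secreted stress hormone, had 0.106 and 3.73 FPKM in the basal and 0.109 and 5.60 FPKM in the luminal label. With 2 fragments in each DMSO library its ratios were 35.3 (9.41 to 297) and 51.5 (13.9 to 431). Lowest were Rps6ka6, with log2 changes of -0.60 and -0.96, and Mthfd1l, with -0.35 and 0.17.

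The 26 genes listed for the ATF6 and XBP1 arms, the other arms of the response to unfolded protein, had medians of 0.05 and 0.04. Of these, 1 passed the threshold in the basal label, Atf6 itself with 9.97 and 22.0 FPKM, where 2.15% of all genes did. In the luminal label none passed it, where 2.37% did. The chaperone genes Calr and Pdia6 were lowest, at log2 changes of -0.38 and -0.61 in the basal label and -0.41 and -0.24 in the luminal label. Dnajb9, with 0.46 and 0.81, and Atf6, with 1.07 and 0.41, were highest. Herpud1, also known for the response to unfolded protein, was listed with the ATF4 targets instead. It had log2 changes of 0.95 and 1.08, so these counts depend on the listing. Of 8 genes listed for CHOP, all 8 were higher in the basal label and 6 in the luminal label, beside 50.9% and 45.6% of all genes. Past the threshold were 2, Ero1l and Bbc3, in the basal label and none in the luminal label, beside 2.15% and 2.37%. Bcl2l11, which codes for the killer protein BIM, had log2 changes of 0.41 and -0.66, and Bcl2 had 0.63 and -0.23. The list was not divided by whether CHOP is known to raise or to lower a gene, so the count of higher genes is no reading of CHOP. Dnajb9 is in this list as well as in that of the ATF6 and XBP1 arms.

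Of the 18 partner and stress bZIP factor genes, 4 passed the threshold in the basal label and 2 in the luminal label, none in both. Over all genes the shares were 2.15%, 2.37% and 0.596%. Atf3, a common companion of CHOP, had 36.3 and 46.4 FPKM in the basal label and 13.7 and 18.9 FPKM in the luminal label, ratios of 1.28 (1.20 to 1.37) and 1.38 (1.24 to 1.54). Cebpg, the partner with which ATF4 binds composite sites, had ratios of 1.78 (1.65 to 1.92) and 1.57 (1.40 to 1.75). Cebpa went from 1.18 to 4.92 FPKM in the basal label, a ratio of 4.15 (3.14 to 5.57), and had 11.9 and 15.7 FPKM in the luminal label. The other 3 past the threshold in the basal label were Creb3l1, Jdp2 and Atf6, and in the luminal label Fosl1 and Nupr1 passed it. A further list held 14 relatives of the 10 genes, none of them of Gdf15. Of these, 1 was past the threshold upwards in the basal label, Cebpa, and 1 downwards, Trib2, and none in the luminal label. Over all genes 2.15% were past it upwards and 3.33% downwards in the basal label, and 2.37% and 1.59% in the luminal label. The 14 relatives had medians of 0.17 and -0.05.

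Several of the 10 genes are also known targets of other regulators, whose lists were read beside them. Of 29 p53 targets outside the 10, p53 being known to act on Gdf15, Sesn2 and Ddit4, 12 and 8 passed the threshold upwards in the basal and luminal label, led by Gadd45a and Cdkn1a, with medians of 0.84 and 0.65. Of 22 NRF2 targets 14 and 9 did, led by Slc7a11 and Gsta4, with medians of 1.29 and 0.94. Over all genes tested, 2.15% and 2.37% passed it upwards. Of 18 hypoxia targets, which share Ddit4, 3 and 4 did, with medians of 0.45 and -0.14. Vegfa and Adm were highest, at 1.92 and 2.02 and at 0.91 and 2.69, and Car9 and Ldha lowest. Of 10 glucocorticoid targets 1 and 0 passed it upwards, with medians of -0.17 and -0.03. Of 26 genes around mTORC1, the target of Sesn2 and Ddit4, Rragd passed the threshold in both labels, with ratios of 5.98 (5.29 to 6.78) and 5.29 (4.34 to 6.49), and none of the others did. The lists overlap, so their counts are not separate readings. Slc7a11, for example, is in those of ATF4 and NRF2 and Vegfa in those of ATF4 and hypoxia. Sesn1 is in those of p53 and of the relatives, and Ddit4l in those of mTORC1 and of the relatives. Of 8 tested genes that C/EBP beta is known to act on, 1 and 4 passed the threshold upwards, with medians of -0.30 and 0.60. Ptgs2 stood at 1.03 and 2.84 and Hp at -2.20 and -1.19. Of the 14 genes of glutathione turnover tested, 2 and 1 passed it upwards, with medians of 0.03 and 0.23 and Gclc at 1.26 and 1.43. Which regulator moved the 10 genes was not tested.

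**Figure D4:**
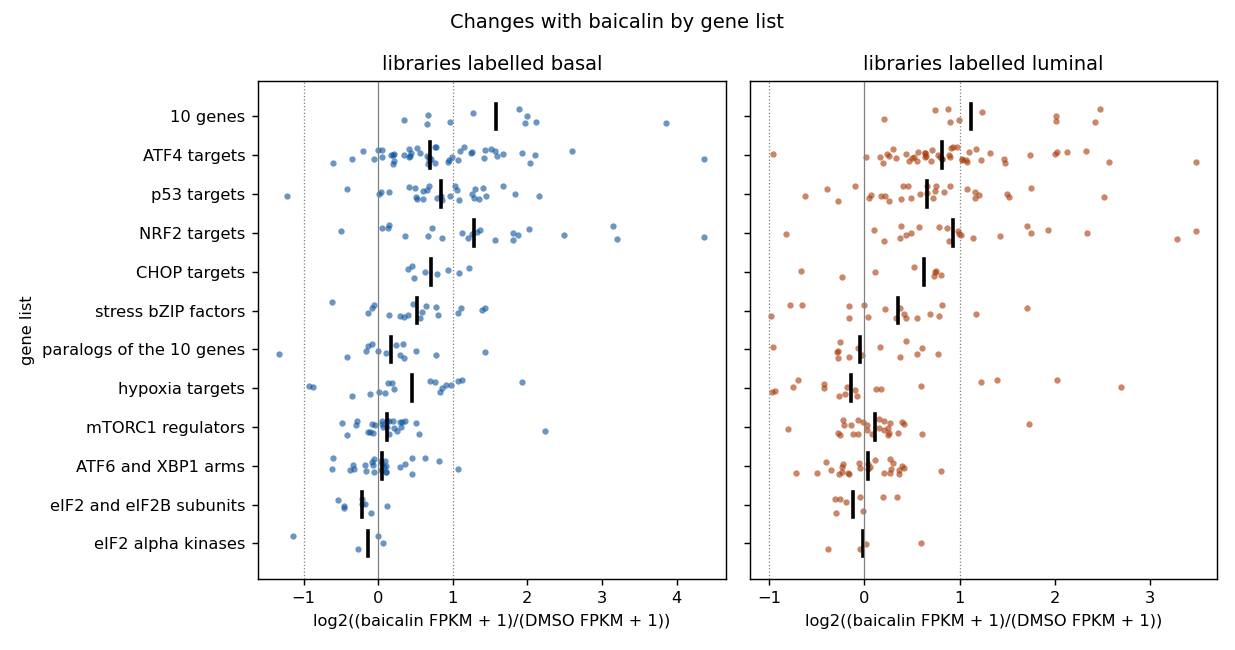
Log2 change with baicalin of each gene (point) by list, for libraries labelled basal (left) and luminal (right), with the list median as a black bar and dotted lines at -1 and 1; points are spread vertically at random. The medians of the 10 genes (1.58 and 1.12) and of the ATF4 targets (0.69 and 0.81) lie right of 0. So do, among others, those of the NRF2 (1.29 and 0.94), p53 (0.84 and 0.65) and CHOP targets (0.71 and 0.63). Those of the ATF6 and XBP1 arms (0.05 and 0.04) lie close to 0.

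Genes with the most similar pattern over the 4 libraries were found by Euclidean distance between centred log2(FPKM + 1) values, among 9144 genes with at least 5 FPKM in a library. Nearest to Gdf15 were Cd68, Tsku, Ampd3, Gadd45a and Gm3776, at distances of 1.06 to 1.26. Cd68, a lysosomal membrane protein also used as a macrophage marker, had 7.49 and 51.5 FPKM in the basal label and 4.44 and 13.7 FPKM in the luminal label. The other 7 immune markers stayed at or under 8.84 FPKM, with Ptprc, which marks all leukocytes, at or under 0.0138 FPKM. The 8 immune markers summed to 16.8 and 53.8 FPKM in the basal and 5.45 and 16.6 FPKM in the luminal label, the 8 fibroblast markers to between 3.08 and 16.7 FPKM over the libraries and the 6 endothelial markers to between 0.901 and 3.58 FPKM. Their part in the changes of Gdf15 was not tested. Nearest to the mean pattern of the 10 genes were Cyb5r1, Rusc2, Morn4, Zmat3 and Ftl1, at 0.148 to 0.284. The 10 genes themselves stood farther from their own mean, from 0.378 for Ppp1r15a to 1.96 for Gdf15. Likeness over 4 libraries is a description of these libraries.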

How the data were processed

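RNA was measured in 4 libraries, 1 per group. Per the paper's methods, the authors aligned reads with HISAT2 to GRCm38, counted them with featureCounts 1.5.0 on Ensembl release 94, and deposited FPKM with 4 decimals. The submitters' processing notes also name Bowtie 0.12.2 and mm8, and how those were used is not given in the sources used here. Values of FPKM times exon length (GENCODE mouse release 21, GRCm38, known for 54409 genes) are whole multiples of 1 fragment's worth and so yielded the depth, with 98.5% to 98.7% of low genes (under 50 fragments) whole within 0.05. Fragments served for exact Clopper-Pearson intervals on ratios, exact Poisson intervals on levels, and log-normal intervals on ratios of ratios. They cover counting error only, and reads without molecular identifiers are not independent molecules.

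A gene was kept if no library listed it at 0, which left 17787, the 10 genes among them. The pseudocount was 1 and the threshold 1 on the log2 scale. No test was made, since each group has 1 library. The 10 genes and the 24 lists (from general knowledge, 3 genes found by an older symbol) were chosen with earlier results of these data known. Named genes were the 10, the kinases, paralogs and bZIP factors, the genes most alike, and in other lists the 2 highest and 2 lowest by mean change with at least 1 FPKM, though not each such gene is given. Asns, Bbc3, Oma1, Dele1, Krt5, Acta2, Tmem189, Nup62, Il4i1, Mars, Gm4189 and Ptprc were named besides, after their values were seen. Transcripts aligned with BLAST 2.17.0 at 95% identity over at least 200 bases showed no near copy of the 10 genes other than the stretch Cebpb shares with Tmem189. The computation was tested on simulated data. Tools were scipy 1.17.1, pandas 2.3.3, numpy 2.4.6 and matplotlib 3.10.9 under Python 3.11.15.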

Additional observations from a re-analysis of the deposited data

Results flagged for a closer look

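Of 85 genes that the naming rule picked, the 10 included and marker lists left out, 14 (16.5%) had changes of opposite sign in the 2 labels, each beyond counting error in both. Of all 17781 genes tested with a known exon length, 1886 (10.6%) did, so such a pattern was common in these libraries. The difference was not tested, as each condition has 1 library. Given as luminal log2 change minus basal log2 change, the genes lower in the basal and higher in the luminal label were Eif2ak3 (0.87), Nupr1 (1.22), Mthfd1l (0.52), Txn1 (0.61), Gpx1 (0.79) and Saa3 (4.09). The genes higher in the basal and lower in the luminal label were Jun (-0.94), Fos (-1.55), Jund (-1.05), Creb3l2 (-0.46), Atf7 (-0.38), Bcl2l11 (-1.07), Bcl2 (-0.86) and Lcn2 (-0.93). The 10 stress genes, though counted in the 85, could not be among them. Each was higher with baicalin in both labels, and they had been chosen on these contrasts. The AP-1 genes Jun, Fos and Jund had 224, 59.7 and 93.4 FPKM in the luminal DMSO library and 130, 29.8 and 59.2 FPKM in the luminal baicalin library. Nupr1, a stress cofactor and ATF4 target, had 267 and 257 FPKM in the basal label and 38.2 and 87.2 FPKM in the luminal label.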

How the results depend on the processing

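Of the 7 alternatives, only scaling to TPM and centring could have turned the sign of a change with baicalin, and under both all 20 changes of the 10 genes stayed above 0. Both filters on low values and centring left the counts of genes past the threshold among the 10 and in the lists the same within 1.5 times. With a pseudocount of 0.1, and with none, the genes of the 10 whose change differed between labels by more than 1 went from 2 to 4. The genes of the ATF6 and XBP1 arms past the threshold in the basal label went from 1 to 2 with either pseudocount and with scaling to TPM. With a threshold of 2, 2 of the 10 passed in the basal label, 0 were lower in the luminal label under DMSO, 1 under baicalin, and 0 differed between labels, while 4 and 5 ATF4 targets and 0 genes of the ATF6 and XBP1 arms in the basal label passed. Over all genes, 1123 and 1052 were above 1 in the basal and luminal label with a pseudocount of 0.1, 1693 and 1559 with none, 696 and 718 with TPM, and 41 and 60 were above 2, against 383 and 421. The share of genes above 1, 2.15% and 2.37%, became 3.25% and 3.59% when genes had to reach 1 FPKM in some library, and 0.823% and 0.909% with no filter. The pseudocount and the threshold act by construction on low levels and on size. No paired analysis was possible because the labels give each group 1 library and no replicate numbers. Low DMSO counts give wide intervals, as for Fgf21 with 2 fragments in each label, Creb3l1 with 14 and 15, and Chac1 with 23 in the luminal label.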
